A study of Homo sapiens with 12 samples.

Results

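SAT1 and the genes of polyamine metabolism were followed in 2 human monocytic cell lines treated with honokiol, a biphenol from magnolia bark. The 10 genes were SAT1, ODC1, OAZ1, OAZ2, AZIN1, SRM, SMS, AMD1, SMOX and PAOX, out of 36866 genes listed. SAT1 was selected on its honokiol response in these libraries, so that response is given below as a description with no test, while the other 9 genes were selected on their place in the pathway. THP-1 comes from a patient with acute monocytic leukaemia and U-937 from a patient with histiocytic lymphoma, and the study used both established monocytic lines as models of acute myeloid leukaemia, so each line stands for 1 patient's tumour. Both lines were cultured for 24 h with honokiol or with 0.1% DMSO, the solvent, and poly(A) RNA was sequenced in 3 libraries per group, 12 in all. The labels give honokiol doses of 20 and 35 µM without saying which line received which, so a comparison of the lines with honokiol may also be a comparison of doses, and line and dose then cannot be told apart.

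Putrescine, spermidine and spermine are small positively charged amines that bind RNA, DNA and membranes and that dividing cells need. ODC1 makes putrescine from ornithine, AMD1 supplies the aminopropyl donor, and SRM and SMS add aminopropyl groups in turn to give spermidine and spermine. SAT1 acetylates spermidine and spermine, which sends them to export or to oxidation by PAOX, and SMOX oxidises spermine directly with release of hydrogen peroxide. The antizymes OAZ1 and OAZ2 bind ODC1 and deliver it to the proteasome, and AZIN1, an inactive relative of ODC1, binds antizyme. Much of the control of these enzymes acts on translation and on protein turnover, which RNA sequencing does not read.

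SAT1 and SRM separated the treatments in at least 1 line, and SMS differed between the lines. ODC1 also differed between the lines but is not printed, so the choice does not follow from these values alone. The stretches before the starts of SAT1, SRM and SMS are shown. They were taken from RefSeq (GRCh38.p14), run 5′ to 3′ toward the start on the strand of the gene, and carry in capitals the matches to 2 motifs, the E-box with the letters CACGTG and, on either strand, the box named for its letters CCAAT.
SAT1, chrX:23782923-23783172, plus strand: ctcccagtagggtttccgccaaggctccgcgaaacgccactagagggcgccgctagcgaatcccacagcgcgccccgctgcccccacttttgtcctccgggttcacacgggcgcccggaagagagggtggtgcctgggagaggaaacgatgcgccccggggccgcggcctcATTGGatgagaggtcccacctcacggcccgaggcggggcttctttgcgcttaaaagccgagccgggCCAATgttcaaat
SRM, chr1:11060025-11060268, minus strand: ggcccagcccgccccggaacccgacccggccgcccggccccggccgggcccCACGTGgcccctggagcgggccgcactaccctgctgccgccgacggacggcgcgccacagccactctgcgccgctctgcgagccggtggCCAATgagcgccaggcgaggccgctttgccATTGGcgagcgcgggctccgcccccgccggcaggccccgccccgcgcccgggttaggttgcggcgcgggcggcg
SMS, chrX:21940459-21940572, plus strand: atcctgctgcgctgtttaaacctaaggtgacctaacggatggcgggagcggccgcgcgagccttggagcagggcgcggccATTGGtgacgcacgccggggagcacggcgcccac

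SRM is printed from base -250 to -7 and SMS from -250 to -137, because GENCODE starts both genes farther upstream than the start used here and counts the remaining bases as part of the gene. Of the 10 genes, 7 matched a promoter entry. The full windows of 250 bases before the RefSeq start were rich in G and C, with 66.4% in SAT1, 72.8% in SMS and 82.0% in SRM (68.4% in the printed part of SMS), against a median of 58.0% over 35116 promoters. SAT1 held 2 CCAAT boxes, SRM and OAZ1 also 2 each, and SMS and one of the AMD1 entries 1 each, while 32.0% of all promoters held at least 1. The E-box CACGTG, the letters bound by MYC with MAX among other factors, lay in SRM at positions -199 to -194 from the start and in 1 of the 2 entries of ODC1, and in 6.34% of all promoters. Neither the antioxidant response element core TGACNNNGC (10.9% of promoters), nor the C/EBP-ATF element TGATGNAA (3.14%), nor the TATA box TATAAA (10.7%) was matched in these windows of the 7 genes, on either strand. The CCAAT box was added to the search after the promoters had been seen.

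Levels are given in FPKM, fragments per kilobase of transcript per fixed number of sequenced fragments, so that genes of unequal length can be set side by side. Library totals ran from 57406966 to 75065752 estimated counts. Of 10 myeloid markers, 8 reached 1 FPKM in every library. MPO and CD14 did so in every THP-1 library, but in U-937 MPO held 0.06 to 0.17 FPKM and CD14 0.17 to 2.15 FPKM. The summed FPKM of the T cell, B cell, erythroid and epithelial markers stayed at or below 0.25, 3.38, 0.27 and 1.35. In the DMSO library numbered 1 of each line, mitochondrially encoded transcripts took 13.7% (THP-1) and 12.6% (U-937) of the counts, against 5.61 to 7.55% in the other 10 libraries. Values without these 2 libraries are given below for some of the genes.

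The 10 genes spanned more than 2 orders of magnitude. In THP-1 with DMSO, OAZ1 stood highest (mean 111 FPKM), followed by SRM (63.0), ODC1 (59.5), AZIN1 (30.6), SMS (19.5), AMD1 (9.93), OAZ2 (6.47), SAT1 (5.57), SMOX (1.91) and PAOX (0.87). In U-937 with DMSO, the synthases and ODC1 led, with SRM at 189.5, ODC1 at 109 and SMS at 101, ahead of OAZ1 at 96.6 FPKM. Summed over the 10 genes, the DMSO libraries held 254 to 346 FPKM in THP-1 and 535 to 596 in U-937.

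**Figure D1:**
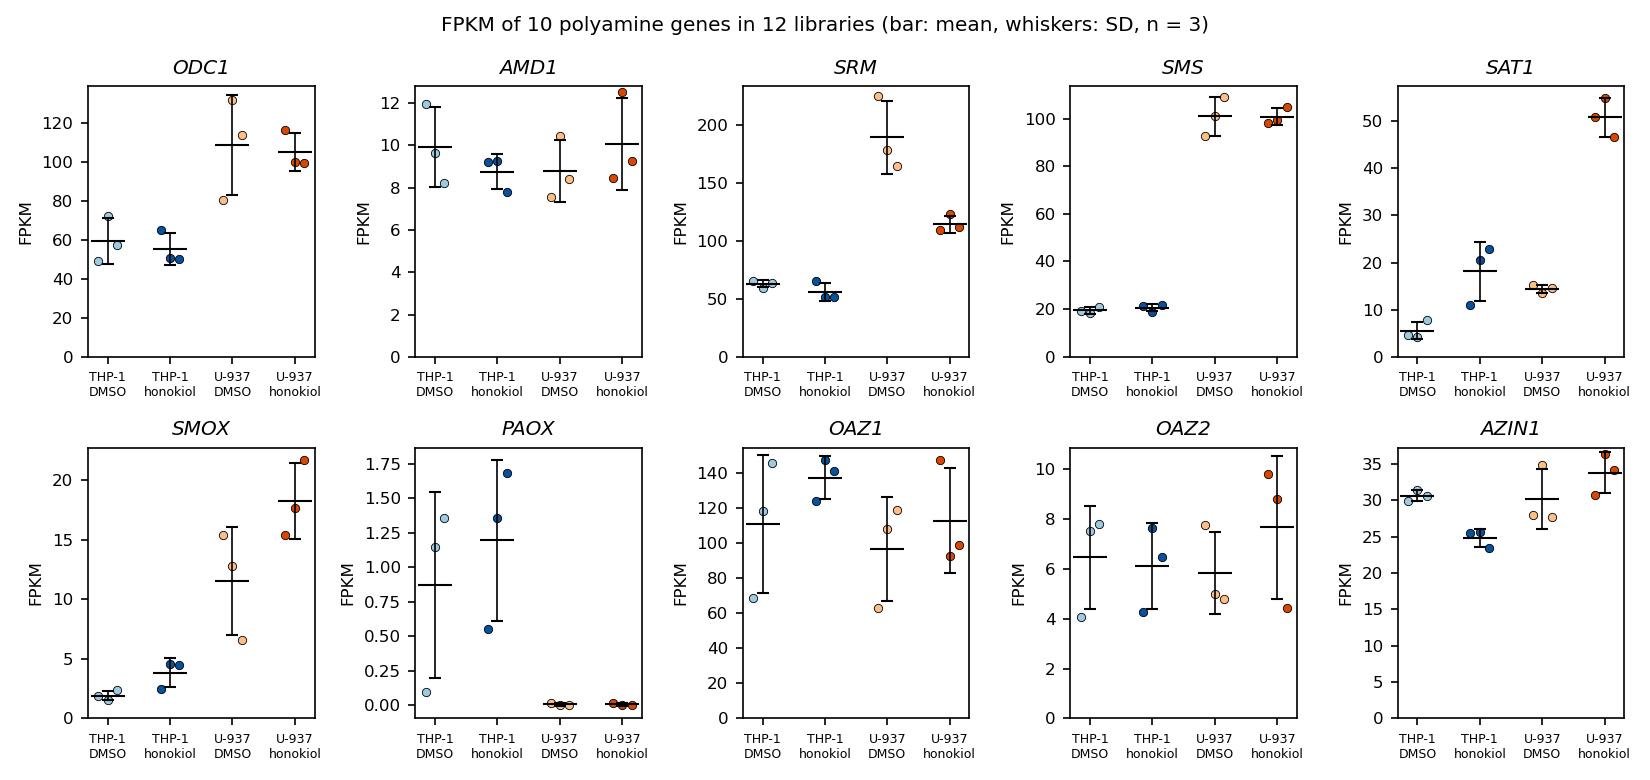
Level of each of the 10 genes in FPKM (vertical axis, linear) in the 12 libraries, by line and treatment; points are libraries, the long bar is the mean and the whiskers are the SD of 3 libraries. SAT1 libraries with honokiol lie above those with DMSO in each line, SRM is lower with honokiol in U-937, and PAOX lies at or near 0 in U-937.

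SAT1 (ENSG00000130066, chromosome X, 23783173 to 23786226, GRCh38) was higher with honokiol in both lines. In THP-1, its 3 DMSO libraries held 4.69, 4.31 and 7.72 FPKM, and its 3 honokiol libraries held 10.9, 20.5 and 22.9 FPKM. In U-937, the DMSO libraries held 15.2, 13.5 and 14.6 FPKM, and the honokiol libraries 51.0, 54.8 and 46.6 FPKM. No honokiol library overlapped the DMSO libraries of its own line, and the honokiol libraries of THP-1 were the most uneven, with the library numbered 1 lowest. The fitted log2 fold changes were 1.65 (SE 0.32) for THP-1 and 1.72 (SE 0.13) for U-937, which are folds of 3.13 and 3.30. In bulk RNA a change in the make-up of the cells and a change in RNA per cell cannot be told apart. Without honokiol library 1 the THP-1 value was 1.91, and without the DMSO libraries numbered 1 the values were 1.58 in THP-1 and 1.79 in U-937.

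Ordered by mean level, SAT1 ran from THP-1 with DMSO (5.57 ± 1.87 FPKM, SD) through U-937 with DMSO (14.4 ± 0.85) and THP-1 with honokiol (18.1 ± 6.36) to U-937 with honokiol (50.8 ± 4.12). The middle pair overlapped, since THP-1 with honokiol covered 10.9 to 22.9 FPKM and U-937 with DMSO 13.5 to 15.2, and the other neighbours in this order did not overlap. Among all genes listed, SAT1 in THP-1 ranked 5863 under DMSO and 2026 under honokiol, and in U-937 it ranked 2795 and 678. No annotated exon of another gene overlaps SAT1, and gene-level counts do not separate its splice forms, of which one carries an extra exon that marks it for decay.

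Of the oxidases, SMOX (chromosome 20, 4120980 to 4187747) leaned the same way as SAT1 without passing the test. In THP-1 it measured 1.84, 1.54 and 2.34 FPKM with DMSO and 2.43, 4.58 and 4.45 FPKM with honokiol. The honokiol libraries all lay above the DMSO libraries, the lowest by a narrow margin, and the log2 fold change was 0.94 (SE 0.29, 95% interval 0.27 to 1.61, unadjusted p = 0.0121, and by edgeR adjusted p = 0.283 over all genes). In U-937 it measured 15.4, 12.8 and 6.56 FPKM with DMSO and 15.4, 17.7 and 21.7 FPKM with honokiol. There the groups met at their edges, the log2 fold change was 0.55 (SE 0.32, interval -0.18 to 1.29, adjusted p = 0.423), and it was 0.24 without DMSO library 3, the lowest of the line.

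PAOX, the oxidase that takes up acetylated polyamines, was scarce. THP-1 held 0.10, 1.15 and 1.36 FPKM with DMSO and 0.55, 1.36 and 1.68 FPKM with honokiol, and the groups overlapped. The log2 fold change of 0.43 (SE 0.76, interval -1.33 to 2.19) became -0.09 without DMSO library 1, one of the 2 libraries with a raised mitochondrial share, in which PAOX had 18 counts. In U-937 the counts were 3, 0 and 0 with DMSO and 3, 0 and 0 with honokiol, so no change could be measured and no fold is given. An unnamed transcript, AL360181.3, overlaps PAOX exons on the same strand with up to 1.14 FPKM, which makes the PAOX values uncertain.

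Among the synthetic enzymes, SRM (spermidine synthase, chromosome 1, 11054584 to 11060018) stood lower with honokiol in U-937. Its U-937 libraries measured 225, 179 and 165 FPKM with DMSO and 109, 123 and 112 FPKM with honokiol. All honokiol libraries lay below all DMSO libraries, with means of 189.5 and 115 FPKM. The log2 fold change of -0.82 (SE 0.17, interval -1.22 to -0.43) missed the threshold (unadjusted p = 0.00128, adjusted p = 0.0945) and passed it by DESeq2 (adjusted p = 0.00173) and in 1 edgeR fit of all 12 libraries (adjusted p = 0.0359). Without DMSO library 1 it was -0.65, and leaving out any one library of the line kept it between -0.95 and -0.65. In THP-1, SRM measured 65.2, 59.5 and 64.2 FPKM with DMSO and 65.3, 51.8 and 51.5 FPKM with honokiol, which overlapped (log2 fold change -0.22, interval -0.57 to 0.12, adjusted p = 0.545).

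SMS (spermine synthase, chromosome X, 21940709 to 21994837) differed little between the libraries of a line. It measured 19.0, 18.4 and 21.1 FPKM with DMSO and 21.5, 18.9 and 21.6 FPKM with honokiol in THP-1. In U-937 it measured 92.7, 101 and 109 FPKM with DMSO and 98.1, 99.6 and 105 FPKM with honokiol. The groups overlapped in both lines, and the 95% intervals of the log2 fold change were -0.28 to 0.33 (THP-1) and -0.35 to 0.18 (U-937). In THP-1 the ratio of SMS to SRM in FPKM was 0.310 ± 0.018 (SD) without and 0.371 ± 0.046 with honokiol, and in U-937 it was 0.546 ± 0.126 and 0.882 ± 0.066.

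ODC1 (chromosome 2, 10439968 to 10448327), the first enzyme of the pathway, overlapped between treatments in each line. It measured 49.0, 72.1 and 57.3 FPKM with DMSO and 65.0, 50.8 and 50.4 FPKM with honokiol in THP-1. In U-937 the values were 80.7, 132 and 114 FPKM with DMSO and 116, 99.9 and 99.2 FPKM with honokiol. Its log2 fold changes of -0.15 and -0.13 had intervals of -0.54 to 0.24 and -0.53 to 0.28. ODC1 was lowest in DMSO library 1 in each line, and without that library its log2 fold change in THP-1 was -0.23. In U-937, leaving out any one library of the line put the ODC1 value between -0.29 and 0.022. AMD1 ranged from 7.57 to 12.6 FPKM over the 12 libraries, with log2 fold changes of -0.25 for THP-1 (interval -0.69 to 0.20) and 0.10 for U-937 (-0.31 to 0.51). Processed pseudogenes of SRM and AMD1 reached at most 0.28 FPKM.

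For the antizymes, OAZ1 (chromosome 19, 2269509 to 2273490) had its lowest value of each line in the DMSO library with the raised mitochondrial share. The THP-1 values were 68.6, 119 and 146 FPKM with DMSO and 124, 147 and 141 FPKM with honokiol, and the U-937 values 63.0, 108 and 119 FPKM with DMSO and 147, 92.4 and 98.7 FPKM with honokiol. Its log2 fold changes of 0.27 (interval -0.26 to 0.80) and 0.15 (-0.44 to 0.74) became 0.05 and -0.07 without those libraries. In U-937 it was also -0.09 without honokiol library 1, the highest of the line, whose mitochondrial share was 6.35%, and the part of the mitochondrial share in these values was not tested. OAZ2 ranged from 4.07 to 9.82 FPKM, with log2 fold changes of -0.12 for THP-1 (-0.74 to 0.51) and 0.29 for U-937 (-0.46 to 1.03). Its THP-1 value was -0.33 without DMSO library 1 and 0.09 without honokiol library 1. OAZ1 shares exon sequence with JSRP1 on the other strand, at up to 4.34 FPKM, and whether the counting used strand is not given in the sources used here.

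AZIN1, the antizyme inhibitor, was the one gene of the antizyme circuit whose treatment groups separated. In THP-1 it measured 29.9, 31.4 and 30.6 FPKM with DMSO and 25.5, 25.7 and 23.5 FPKM with honokiol, and the honokiol libraries all lay below. The log2 fold change of -0.35 (SE 0.12, interval -0.62 to -0.09) did not pass the threshold (unadjusted p = 0.0161, adjusted p = 0.292). In U-937 it measured 28.0, 34.9 and 27.7 FPKM with DMSO and 30.8, 36.4 and 34.2 FPKM with honokiol, which overlapped (log2 fold change 0.07, interval -0.25 to 0.39).

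**Figure D2:**
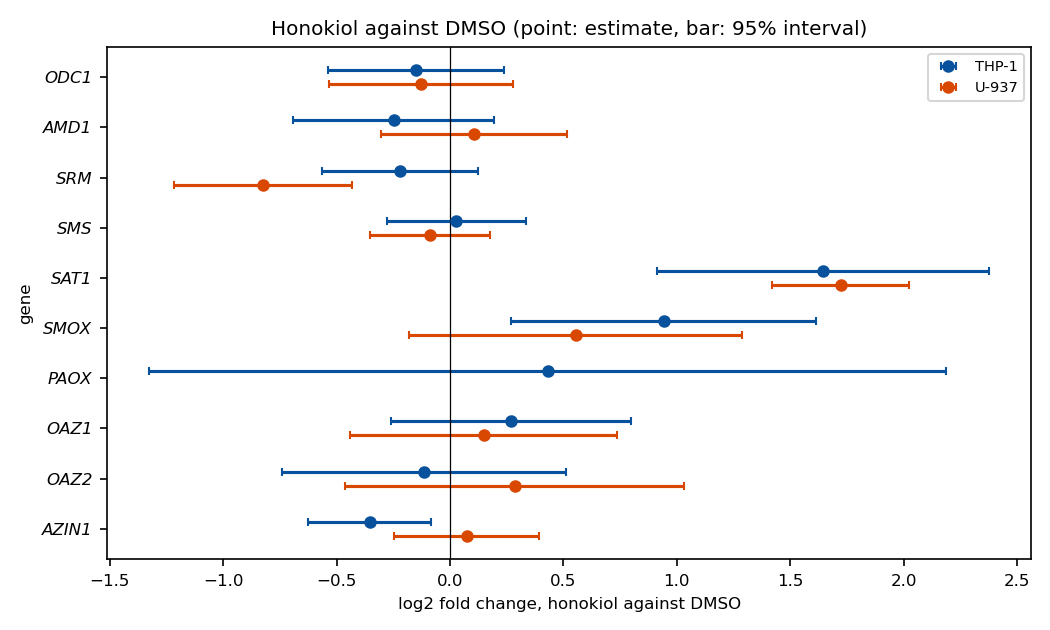
Log2 fold change with honokiol against DMSO (horizontal axis) for each gene in THP-1 and U-937; points are edgeR estimates and bars their 95% intervals. SAT1, on which the gene set was selected, lies at 1.65 and 1.72, SRM at -0.82 in U-937 and SMOX at 0.94 in THP-1, while PAOX has a value in THP-1 only.

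Counted over the 9 genes other than SAT1 in THP-1, 0 had an adjusted p under 0.05 by edgeR, where 0.0411% of the 14600 genes tested did. By DESeq2 and by limma-trend the count was also 0 (3.42% of all genes were called by DESeq2). At an unadjusted p under 0.05 there were 2, SMOX and AZIN1, against 13.1% of all genes. SMOX was also the one gene of the 9 whose honokiol libraries all lay above the DMSO libraries, as in 13.0% of all genes, and AZIN1 the one below, as in 7.62%. The median log2 fold change of the 9 was -0.12, against -0.0011 over all genes.

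In U-937, 8 of these 9 could be tested and 0 passed by edgeR or limma-trend, where edgeR called 0.0947% of 13726 genes. DESeq2 called SRM, as it called 5.76% of all genes, and SRM was also the one with an unadjusted p under 0.05, against 16.7%. None of the 8 had its honokiol libraries all above the DMSO libraries (16.7% of all genes) and SRM had them all below (7.5%). Their median log2 fold change was 0.09, against 0.02 over all genes. No test compared these shares with those of all genes.

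The responses of the lines were compared in 1 fit of the 12 libraries. The SAT1 response in U-937 minus that in THP-1 was 0.07 on the log2 scale (SE 0.36, interval -0.73 to 0.86), so the interval allows a difference in either direction. SAT1 was selected on its honokiol response in these libraries, so its difference is a description with no test. For SRM the difference was -0.61 (interval -1.11 to -0.11, unadjusted p = 0.0200, adjusted p = 0.430), and for AZIN1 it was 0.42 (0.04 to 0.79, unadjusted p = 0.0331, adjusted p = 0.485). Of the 9 genes other than SAT1, 0 passed by edgeR, DESeq2 or limma-trend, and 2, SRM and AZIN1, had an unadjusted p under 0.05. Over all 16283 genes the shares were 0.111% (edgeR), 1.5% (DESeq2) and 9.37% (unadjusted). Neither lower SRM nor lower AZIN1 is therefore shown to be particular to a line.

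The lines were also compared with each other under each treatment. SAT1 was not selected on this contrast, but the same libraries supply it and the contrast on which SAT1 was selected, so the 2 share values. With DMSO, 6 of the 10 genes passed the test, where 52.9% of 16283 genes did: 5 were higher in U-937 (24.4% of all genes were) and 1, PAOX, was lower (28.5%). SMS was 4.99-fold higher in U-937 (log2 difference 2.32, SE 0.11, adjusted p = 2.97e-08), SRM 2.92-fold (1.55, SE 0.17, adjusted p = 9.71e-06) and ODC1 1.77-fold (0.82, SE 0.18, adjusted p = 0.00220). Thus both aminopropyl synthases and the enzyme that makes putrescine stood higher in U-937, as did 24.4% of all genes. On the catabolic side SMOX was 5.93-fold higher (2.57, SE 0.35, adjusted p = 6.35e-05) and SAT1 2.52-fold higher (1.33, SE 0.26, adjusted p = 0.00103) in U-937. For AMD1, OAZ1, OAZ2 and AZIN1 the log2 differences were -0.23 (interval -0.67 to 0.20), -0.24 (-0.82 to 0.34), -0.16 (-0.89 to 0.57) and -0.07 (-0.33 to 0.20), and none passed.

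Both DMSO libraries numbered 1 were then left out, a setting chosen after seeing the data. The same 6 genes passed, and SAT1 was still higher in U-937 (log2 difference 1.19, adjusted p = 0.0157). The share of all genes that passed in this fit is not given here, so the 6 are not read against it. ODC1 passed in this fit and OAZ1 did not. For OAZ2 the log2 difference between the lines moved from -0.16 to -0.68 (adjusted p = 0.1345), and its difference of responses from 0.39 to 0.91 (adjusted p = 0.5231). Over all 12 libraries the ratio of OAZ1 to ODC1 in FPKM covered 1.40 to 2.90 in THP-1 and 0.781 to 1.27 in U-937. This ratio is a description and was not tested.

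With honokiol, 7 of the 10 genes passed, 6 higher and 1 lower in U-937, where 51.4% of all genes did, 24.1% higher and 27.3% lower. SMS (log2 difference 2.19), SMOX (2.17), SAT1 (1.40), SRM (0.93) and ODC1 (0.83) were higher again, PAOX was lower, and AZIN1 was added at 0.35 (SE 0.12, adjusted p = 0.0307). The AZIN1 call was lost in several alternatives, among them without any one of the 3 THP-1 honokiol libraries (adjusted p 0.0606 to 0.112). For SRM the gap between the lines was 2.92-fold with DMSO and 1.91-fold with honokiol.

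**Figure D3:**
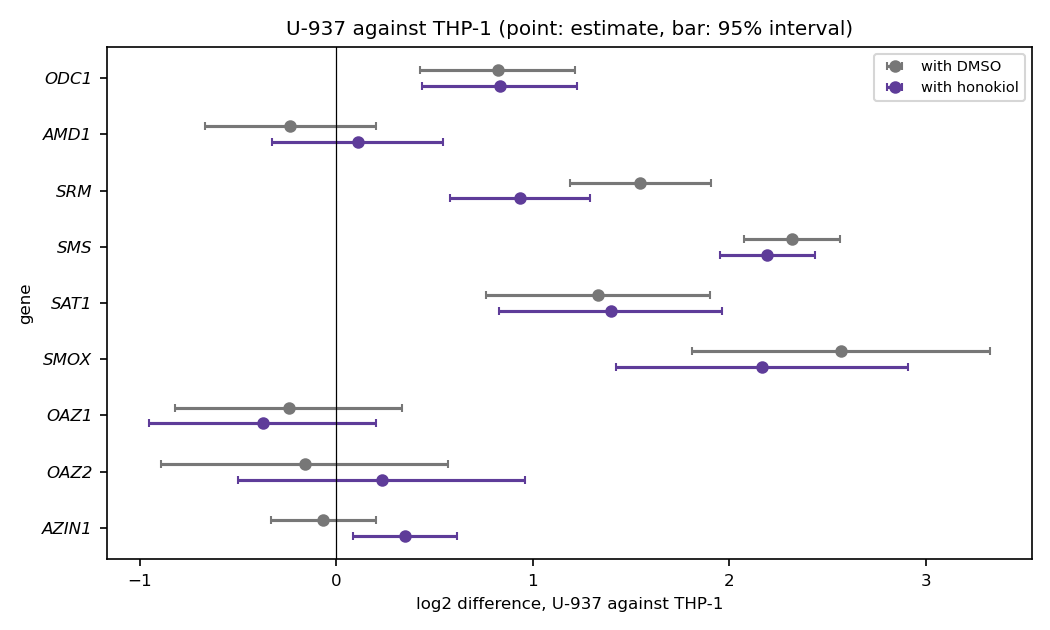
Log2 difference between the lines, U-937 against THP-1 (horizontal axis), for 9 genes with DMSO and with honokiol; points are edgeR estimates and bars their 95% intervals. SMS, SMOX, SRM, SAT1 and ODC1 lie above 0 under each treatment, SMS at 2.32 and 2.19, and PAOX is left out because its U-937 counts were at or near 0.

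A further 26 genes that feed, salvage, transport or use polyamines were read in the same fits. In each line 19 of them could be tested, and 0 had an adjusted p under 0.05 with honokiol by edgeR, DESeq2 or limma-trend. At an unadjusted p under 0.05 there were 4 in THP-1 (ATP13A2 and SLC3A2 higher, MAT2A and ADI1 lower) and 2 in U-937 (SLC3A2 higher, EIF5A lower), against the 13.1% and 16.7% of all genes given above. The 19 genes had a median log2 fold change of 0.05 (THP-1) and -0.24 (U-937). All honokiol libraries lay above all DMSO libraries for 4 of them in THP-1 (MAT2B, APIP, ATP13A2 and SLC3A2), against 13.0% of all genes. They lay below for 1, ADI1, against 7.62%. For U-937 they lay above for 2 (SAT2 and SLC3A2), against 16.7%, and below for 0, against 7.5%.

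SLC3A2, the heavy chain of several amino acid exchangers and a part of polyamine transport, measured 9.23, 10.93 and 11.03 FPKM with DMSO and 11.97, 13.4 and 17.5 FPKM with honokiol in THP-1. In U-937 it measured 15.8, 21.7 and 26.6 FPKM with DMSO and 30.5, 34.6 and 29.7 FPKM with honokiol. The groups did not overlap in either line, and the log2 fold changes were 0.41 (adjusted p = 0.353) and 0.48 (adjusted p = 0.227). In THP-1 the other extreme values were 0.66 for ARG2 (a mitochondrial arginase) and 0.60 for GPC1 (a heparan sulphate carrier of polyamines), and -0.74 for MAT2A (which makes S-adenosylmethionine), -0.50 for ADI1 (methionine salvage) and -0.31 for ATP13A3 (a polyamine transporter). In U-937 they were 0.65 for SAT2 (a relative of SAT1) and 0.20 for MAT2B, and -0.43 for EIF5A (the factor that carries spermidine-derived hypusine), -0.35 for ATP13A3 and -0.35 for DHPS (the first hypusine enzyme), all on the log2 scale and none past the threshold.

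**Figure D4:**
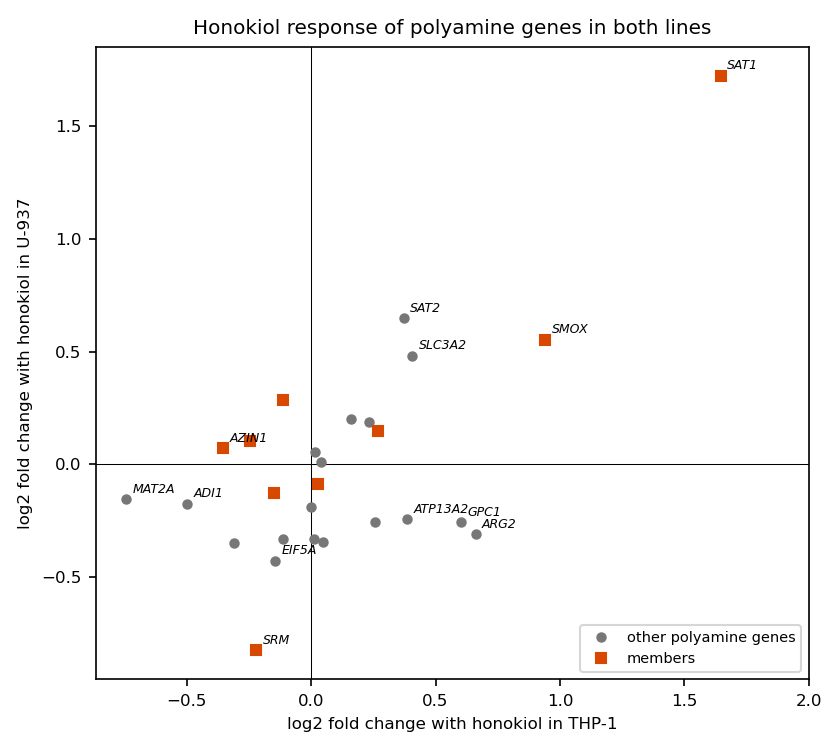
Log2 fold change with honokiol in THP-1 (horizontal axis) and in U-937 (vertical axis) for 9 of the 10 genes (squares) and those of the 26 further polyamine genes tested in both lines (circles); each point is 1 gene's edgeR estimate. SAT1 stands at 1.65 and 1.72, SMOX at 0.94 and 0.55, and SRM at -0.22 and -0.82, with most other genes within 0.5 of 0 on each axis.

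With DMSO, 13 of 20 further genes tested differed between the lines, 10 higher and 3 lower in U-937, read against the 52.9% of all genes. EIF5A was higher in U-937 (log2 difference 1.47, SE 0.17), as were DOHH, the enzyme that completes hypusine (1.94, SE 0.24), and ATP13A2, a lysosomal polyamine exporter (2.99, SE 0.17). MTAP, which salvages the methylthioadenosine released by SRM and SMS, was all but absent from THP-1, with at most 0.01 FPKM in its 6 libraries against 1.68 to 2.88 FPKM in U-937. AGMAT, named for making putrescine from agmatine, ran the other way, with 1.65 to 2.65 FPKM in THP-1 and at most 0.11 FPKM in U-937. No fold is given for these 2 genes because one line is near 0.

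The genes whose log2 level followed SAT1 most closely over the 12 libraries were CTSD (Pearson r = 0.957), ACAA2 (0.956), ITGAL (0.950), SLC7A11 (0.946) and FGR (0.941), out of 11518 genes with a mean of at least 1 FPKM. CTSD is a lysosomal protease, ACAA2 a thiolase of fatty acid oxidation, ITGAL an integrin chain, SLC7A11 the cystine carrier that pairs with SLC3A2, and FGR a myeloid SRC-family kinase. These correlations rest on 4 group means and on the contrast on which SAT1 was selected, so they are a description. With the group means removed, r for the 5 genes lay between 0.397 and 0.674. Of the other polyamine genes of the set, SMOX came nearest (r = 0.830, rank 157), followed by SMS (0.610) and ODC1 (0.381).

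In THP-1, each of these 5 genes was lowest among the honokiol libraries in library 1, as SAT1 and SMOX were. FGR held 7.84 to 11.03 FPKM with DMSO and 21.8 to 52.7 FPKM with honokiol in THP-1, and 12.1 to 25.8 and 67.0 to 93.5 FPKM in U-937. SLC7A11 held 0.80 to 1.28 and 1.79 to 3.71 FPKM in THP-1, and 2.11 to 3.20 and 6.20 to 8.97 FPKM in U-937. CTSD, the most abundant of the 5, averaged 297 and 552 FPKM in THP-1 and 513 and 1122 FPKM in U-937.

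**Figure D5:**
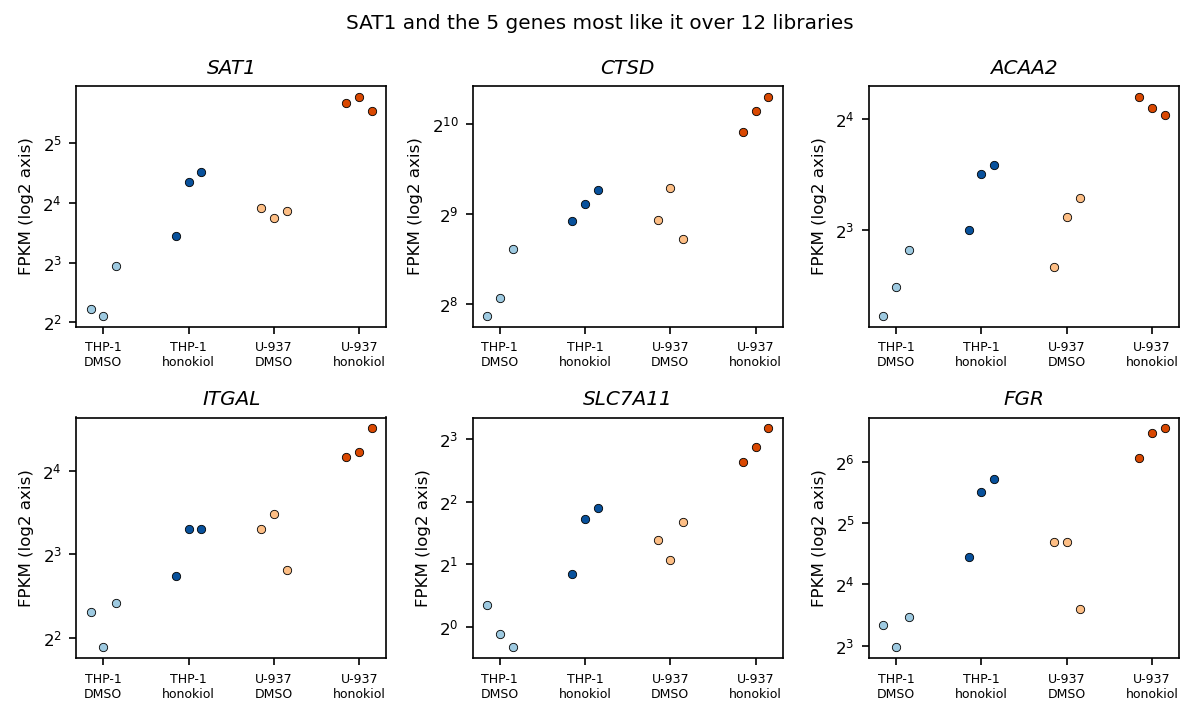
Level in FPKM (vertical axis, log2 scale) of SAT1 and of the 5 genes most like it by Pearson r in the 12 libraries, by line and treatment; each point is 1 library. Each gene is lowest in THP-1 with DMSO and highest in U-937 with honokiol, and SAT1 runs from 4.31 to 54.8 FPKM.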

How the data were processed

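The authors deposited estimated counts and FPKM values per gene for 12 poly(A) RNA libraries. The submitters' notes name HISAT2 2.0, StringTie 1.3.0 and Bowtie 0.12.2 and a mouse build, but the coordinates are human GRCh38: for 35293 of 36866 genes the lower coordinate lies within 5000 bases of that in GENCODE. Expected counts were rounded. A count of 4 is more frequent (17264 values) than 3 (6764) or 5 (4016), so about 4 counts appear to stand for 1 fragment.

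Groups followed the labels. Genes with FPKM of at least 0.5 in 3 or more libraries of a fit were tested with edgeR 4.0.16 (R 4.3.3) by the quasi-likelihood F test after TMM scaling, within each line for honokiol, and in 1 fit of 12 libraries between lines and for the difference of responses. SE is the log2 fold change over the root of F, intervals are 95%, and the threshold is a Benjamini-Hochberg adjusted p of 0.05. Alternatives used DESeq2 1.42.0, limma 3.58.1 (pseudocounts 0.5 and 0.1), other filters and scalings, a replicate block, and fits without each library. Scripts were tested on simulated data. Nothing says that libraries came from separate cultures, so p-values measure only the spread between libraries.

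The 10 genes and all lists were chosen with earlier results of these data known. Named further genes are, per line, the 3 largest and 3 smallest log2 fold changes and, between lines, the 4 largest differences, with EIF5A added after its values were seen. The 5 genes most like SAT1 follow by Pearson r.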

Additional observations from a re-analysis of the deposited data

How the results depend on the processing

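Among the 960 values of single genes under alternative settings, 909 kept their direction and their side of the threshold. Honokiol counts over all 10 genes take in SAT1, which was selected on this contrast, so SAT1's share in them is no test. In THP-1 the count was 0 (0.0411% of all genes), and 1 with DESeq2 (3.42%) and in 1 fit of 12 libraries. With each library left out it ran from 0 to 1, being 1 without THP-1 honokiol replicate 1. In U-937 it was 1 (0.0947% of all genes), and 2 with DESeq2 (5.76%) and in 1 fit of 12 libraries, where SRM was added. With each library left out it ran from 0 to 1, being 0 without DMSO replicate 2, honokiol replicate 2 or honokiol replicate 3. Shares of all genes called are given here for the main and DESeq2 fits only. The counts from the other fits are therefore not read against all genes. SAT1 alone made every change in these counts other than that by SRM, and its log2 fold change over the same settings ranged over 1.45 to 1.92 for THP-1 and 1.67 to 1.81 for U-937. With a replicate block the U-937 count was 0, with the SAT1 log2 fold change at 1.73 against 1.72 without the block, and the AZIN1 difference between lines with honokiol was also lost (adjusted p = 0.0681). The labels do not say whether the numbers pair the libraries. Deviations of same-numbered libraries from their group means correlated between -0.155 and 0.0936. With 3 libraries per group, such correlations cannot decide whether same-numbered libraries shared a culture. Only the THP-1 libraries numbered 3 correlated best with their own number. Requiring an absolute log2 difference over 1 as well left 4 of 7 genes between the lines with honokiol. Over all 16283 genes it left 5249 of 8367. With DMSO it left 7 of 13 further polyamine genes, and 5542 of 8610 over all genes. The cause of these shifts was not tested.

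Some values near 0 changed sign. SMS in U-937 was 0.0011 and 0.0012 with limma-trend. The ODC1 difference of responses was -0.0032 with RLE size factors and with DESeq2, -0.0022 with no filter, -0.011 without mitochondrially encoded genes and -0.061 without both DMSO libraries numbered 1, a setting in which the PAOX difference of responses was 3.31 and the AMD1 difference between the lines with DMSO was 0.049. With each library left out, log2 changes in THP-1 ran from -0.33 to 0.088 for OAZ2, -0.034 to 0.087 for SMS and -0.088 to 0.89 for PAOX. In U-937 they ran from -0.29 to 0.022 for ODC1, -0.091 to 0.29 for OAZ1, -0.016 to 0.18 for AZIN1 and -0.063 to 0.23 for AMD1. The difference of responses ran from -0.20 to 0.26 for SAT1, -0.14 to 0.17 for ODC1, -0.37 to 0.086 for OAZ1 and -3.65 to 2.77 for PAOX. Between the lines, AZIN1 with DMSO ran from -0.17 to 0.015 and AMD1 with honokiol from -0.064 to 0.22.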

Other observations

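The level of MTAP in THP-1 led to its neighbours on chromosome 9 (GRCh38), which were looked at after its values were seen. KLHL9 (21329665 to 21335404) held at most 0.02 FPKM in the 6 THP-1 libraries and 3.76 to 5.95 FPKM in U-937. CDKN2A (21967753 to 21994873) held at most 0.05 FPKM in THP-1 and 8.46 to 14.2 FPKM in U-937, and CDKN2B (22002903 to 22009305) at most 0.01 and 0.39 to 1.3 FPKM. HACD4 (20999509 to 21031640), farther toward the end of the short arm, reached 3.78 FPKM in THP-1 and 2.65 in U-937. What sets these levels was not tested.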
